A study of Mus musculus with 4 samples.

Results

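The long non-coding RNAs described here are 9 nuclear, imprinted or snoRNA-hosting transcripts: Malat1, Neat1, Meg3, Rian, Mirg, H19, Kcnq1ot1, Gas5 and Snhg1. They were picked by symbol, and all 9 had a row among the 32948 genes of the count table. The list was drawn up when it was already known that Malat1 took an unusually large share of 1 library, so that share is given as a description only. The libraries were made from sorted aortic cells, from the arch and the ascending segment, of mice carrying Wnt1-Cre and Rosa26-mTmG. All 4 groups carry both alleles: mTmG gives red membrane tdTomato until Cre recombinase acts, and green membrane GFP in the cell and its descendants afterwards. The Wnt1 promoter drives Cre in neural crest, from which some smooth muscle of the arch descends in the embryo. The groups were male GFP, male tdTomato, female GFP and female tdTomato, with 1 library each. Both male libraries came from a pool of 2 samples and both female libraries from 1 sample, so sex and suspension cannot be told apart. The animals' age was not given in the labels used here.

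Long non-coding RNAs are transcribed and often spliced like messenger RNAs but are not translated into known proteins. Malat1 gathers in nuclear speckles, the stores of splicing factors, and Neat1 is the scaffold of paraspeckles, bodies that hold RNA-binding proteins. Meg3, Rian and Mirg lie in a row on 1 strand of the Dlk1-Dio3 domain, are expressed from the maternal chromosome in mouse, and hold clusters of snoRNAs and microRNAs. H19 and Kcnq1ot1 belong to neighbouring imprinted domains of chromosome 7, and Gas5 and Snhg1 carry snoRNAs in their introns while their spliced RNA is removed by nonsense-mediated decay.

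The libraries held 10094326 to 13911281 estimated counts, and levels are given as CPM, counts scaled by the library's total with TMM factors to 1 common library size. Genes with at least 10 counts numbered 9517 in male GFP, 15669 in male tdTomato, 12008 in female GFP and 16227 in female tdTomato. The labels called every library vascular smooth muscle cells, while the sort used fluorescence alone. All 9 smooth muscle markers were detected in every library, with summed levels of 14054 to 18522 CPM. Markers of other cells were present too. The 10 endothelial markers summed to 58.2 CPM in male GFP against 280 CPM in male tdTomato, and to 64.1 CPM in female GFP against 434 CPM in female tdTomato. The 7 macrophage markers summed to 0.426 CPM in male GFP against 86.3 CPM in male tdTomato, and to 30.5 CPM in female GFP against 28.3 CPM in female tdTomato. As a check of the sex labels, Xist, which acts in X inactivation, had 1.38 CPM (GFP) and 0.144 CPM (tdTomato) in male libraries, against 793 CPM (GFP) and 841 CPM (tdTomato) in female libraries.

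Sequences of Meg3, Rian and Mirg are shown first, as a description. Whether they bear on the levels of these RNAs was not tested. RefSeq windows of 300 bases around the start of Meg3 and of Rian (250 before it and 50 after it, build GRCm38.p6) are printed 5′ to 3′. Capitals mark matches to TGACGTCA (the cAMP response element), CCAAT or TATAAA on either strand.

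Meg3, chr12:109540746-109541045, plus strand: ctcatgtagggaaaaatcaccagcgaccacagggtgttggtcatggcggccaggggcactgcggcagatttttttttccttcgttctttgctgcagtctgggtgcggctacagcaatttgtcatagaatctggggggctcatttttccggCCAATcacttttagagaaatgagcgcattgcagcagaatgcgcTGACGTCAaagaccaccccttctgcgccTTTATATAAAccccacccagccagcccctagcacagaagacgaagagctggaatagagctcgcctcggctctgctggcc

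Rian, chr12:109603695-109603994, plus strand: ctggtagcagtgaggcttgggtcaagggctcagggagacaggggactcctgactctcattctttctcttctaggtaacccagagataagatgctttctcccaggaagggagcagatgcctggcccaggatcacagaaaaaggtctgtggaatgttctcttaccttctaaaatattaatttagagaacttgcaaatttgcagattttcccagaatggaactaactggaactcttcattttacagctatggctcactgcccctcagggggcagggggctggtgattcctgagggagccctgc

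This Meg3 window held TGACGTCA 57 bases before the start, CCAAT 100 bases before it and a pair of overlapping TATAAA matches, 29 bases before it on the minus strand and 25 bases before it on the plus strand. The Rian window held none of these letters and no CpG, against 13 CpG in this Meg3 window and a median of 7 over all windows. A second RefSeq window of Meg3, 4.40 kb past the annotated start of the gene, also held none of these letters and had 1 CpG. It held 1 match to the CArG box (CCTAAATAGG), which was searched too and occurred in 1.63% of all windows. The RefSeq window of Mirg is not shown, because it lies 5.22 kb past the annotated start of that gene. Of 32851 such windows in the table, 1.79% held TGACGTCA, 37.4% CCAAT and 13.6% TATAAA. A match describes letters and not a bound factor. RefSeq windows matched 7 of the 9 genes by symbol.

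Mature microRNAs of the same table lying within the annotated genes numbered 3 in Meg3, 6 in Rian and 26 in Mirg. A few are printed with the seed (bases 2 to 8) in capitals, the first 2 from Rian and the others from Mirg, since these hosts were low in GFP. Among the 26 of Mirg there were 25 seeds, because miR-453 and miR-496a-5p share GGUUGCC. Mature microRNAs have no poly(A) tail and were not measured in these libraries.

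mmu-miR-370-3p: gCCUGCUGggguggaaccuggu
mmu-miR-341-3p: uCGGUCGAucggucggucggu
mmu-miR-134-5p: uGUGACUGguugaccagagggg
mmu-miR-410-3p: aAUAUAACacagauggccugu
mmu-miR-453: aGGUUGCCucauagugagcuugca
mmu-miR-496a-5p: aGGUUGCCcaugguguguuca

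Of the 9 RNAs, 7 had at least 1 count in every library, and Mirg and H19 did not. Per kilobase of annotated exon, Malat1 stood highest at 5863 to 13916 CPM per kb, followed by Gas5 at 241 to 733, Snhg1 at 46.7 to 172, Neat1 at 17.8 to 34.5 and Meg3 at 10.3 to 24.7 CPM per kb. This order of the first 5 was the same in all 4 libraries. The next 3 changed places: Rian stood above Kcnq1ot1 in both tdTomato libraries and below it in both GFP libraries. Rian had 0.531 and Kcnq1ot1 0.634 CPM per kb in male GFP, against 7.22 and 1.32 in male tdTomato. In female GFP Rian had 0.139 and Kcnq1ot1 1.39 CPM per kb, against 2.73 and 1.51 in female tdTomato. Mirg stood above Kcnq1ot1 in male tdTomato, at 3.53 CPM per kb, but below it in female tdTomato, at 0.358 CPM per kb. In both GFP libraries Mirg had 0 counts.

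**Figure D1:**
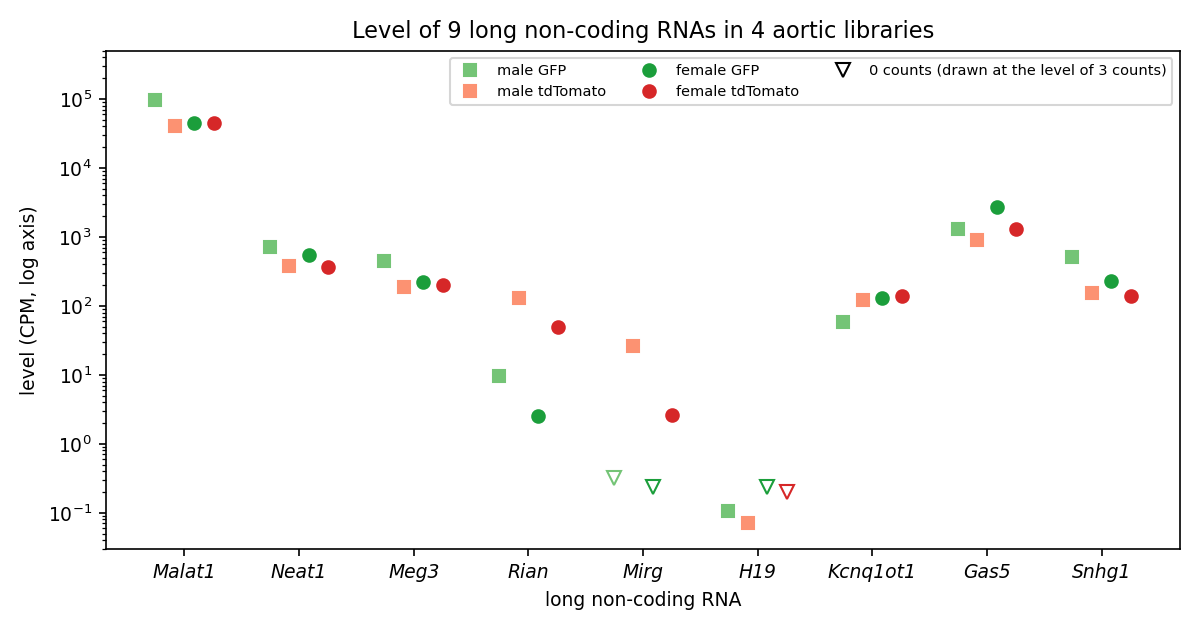
Level of each RNA in CPM (log axis) in the 4 libraries, 1 point per library; squares are male, circles female, green GFP and red tdTomato, and open triangles mark 0 counts, drawn at the level of 3 counts. Both GFP points of Rian and of Mirg lie far below both tdTomato points, while Malat1 lies between 40939 and 97176 CPM.

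GFP and tdTomato cells of each suspension were compared first, the contrast of the sort. In both suspensions Rian and Mirg were lower in GFP by at least 11.0-fold, while Meg3, which starts upstream of them on the same strand, was 2.39-fold higher in male GFP and within 1.10-fold in the female suspension, where its sign depended on scaling. Neat1, Gas5 and Snhg1 were higher in GFP in both suspensions, by 1.45-fold to 3.28-fold. None of the 8 RNAs that entered the test passed edgeR's quasi-likelihood test with suspension as block (Benjamini-Hochberg adjusted p from 0.577 to 1), and of all 15055 genes tested 0% passed, with 1298 (8.62%) at an unadjusted p under 0.05. The p-values rest on the spread of 2 suspensions, one of each sex, and the smallest adjusted p of any gene was 0.577. By size alone, 2 of the 8 were 2-fold or more lower in GFP in each suspension, beside 22.9% of all genes tested, and 0 were 2-fold or more higher in each, beside 5.17%. In one direction or the other it was 2 of 8 beside 28.1%, so the count lies near the background. At 8-fold the same 2, Rian and Mirg, passed, beside 12.0% of all genes. The median log2 ratio of all genes tested was -0.998 in the male suspension and -0.27 in the female suspension, which is the level against which single ratios read.

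Rian, a spliced RNA that holds C/D-box snoRNAs in its introns, had 91 counts (9.69 CPM) in male GFP against 1829 counts (132 CPM) in male tdTomato. In the female suspension it had 32 counts (2.53 CPM) in GFP against 743 counts (49.7 CPM) in tdTomato. Both GFP libraries lay below both tdTomato libraries. Rian was 13.6-fold lower in male GFP (95% exact counting interval 11.0 to 16.95) and 19.6-fold lower in female GFP (13.8 to 28.9), a log2 ratio of -3.98 ± 0.33 (SD, n = 2 suspensions). These intervals cover counting error only, since PCR copies without molecular identifiers are not independent molecules. In bulk libraries, fewer cells of a type and less RNA per cell cannot be told apart.

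Mirg, the host of the microRNA cluster at the far end of the domain, had 0 counts in male GFP against 358 counts (25.8 CPM) in male tdTomato, and 0 counts in female GFP against 39 counts (2.61 CPM) in female tdTomato. With a bound of 3 counts per library, it was at least 80.6-fold lower in male GFP and at least 11.0-fold lower in female GFP. This bound covers counting error only. Of the genes with at least 50 CPM in both tdTomato libraries, 5.42% had 0 counts in male GFP and 1.00% in female GFP. Mirg entered the test through its tdTomato counts alone, so it could only be lower in GFP. Its edgeR adjusted p was 0.577, and with DESeq2 it was 0.0195, the only 1 of 11 alternatives under 0.05 (range 0.0195 to 0.729). DESeq2 called 8.33% of the genes with an adjusted p lower in GFP, and Mirg was the only member among them.

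Meg3 had 4190 counts (446 CPM) in male GFP against 2591 counts (186 CPM) in male tdTomato, and 2838 counts (225 CPM) in female GFP against 3045 counts (204 CPM) in female tdTomato. Male GFP stood alone, and the other 3 libraries lay within 186 to 225 CPM. Meg3 was 2.39-fold higher in male GFP (2.28 to 2.51) and 1.10-fold higher in female GFP (1.05 to 1.16). In the female suspension log2 was 0.14 with TMM, 0.27 with DESeq2's size factors and -0.08 by library totals, with or without Malat1 and mitochondrial genes.

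Ratios within a library need no scaling between libraries. Rian amounted to 2.17% of the Meg3 count in male GFP (1.74% to 2.67%) against 70.6% in male tdTomato (66.5% to 75.0%), and to 1.13% in female GFP (0.770% to 1.60%) against 24.4% in female tdTomato (22.5% to 26.4%). Mirg amounted to under 0.0716% of Meg3 in male GFP, at the bound of 3 counts, against 13.8% in male tdTomato, and to under 0.106% in female GFP against 1.28% in female tdTomato. For both RNAs, both GFP percentages lay below both tdTomato percentages. The intervals cover counting error within 1 library and not the spread between libraries. The tdTomato libraries also lay far apart from each other, at 70.6% and 24.4% for Rian and 13.8% and 1.28% for Mirg.

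All rows of the table that lie between Meg3 and Mirg on their strand were then read in gene order, a set chosen after its values were seen. Gm37899, a transcript model of no assigned class with a start 128 kb past that of Meg3, had 4 counts in male GFP against 1583 in male tdTomato, and 3 counts in female GFP against 162 in female tdTomato. It was 267-fold lower in male GFP (104 to 983) and 45.6-fold lower in female GFP (15.3 to 223). B830012L14Rik, a long non-coding RNA next to Mirg, had 151 counts in male GFP against 696 in male tdTomato, and 77 in female GFP against 681 in female tdTomato. It was 3.11-fold lower in male GFP (2.61 to 3.74) and 7.47-fold lower in female GFP (5.89 to 9.58). All 4 measured transcripts past Meg3 were 2-fold or more lower in GFP in each suspension, beside 22.9% of all genes tested. Mirg and Gm37899 entered the test through their tdTomato counts alone, so they could only be lower in GFP. The snoRNA gene Gm23347 in the same stretch had 0 counts. Dlk1 and Rtl1, protein-coding genes of the domain expressed from the paternal chromosome, had at most 2 counts in any library.

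**Figure D2:**
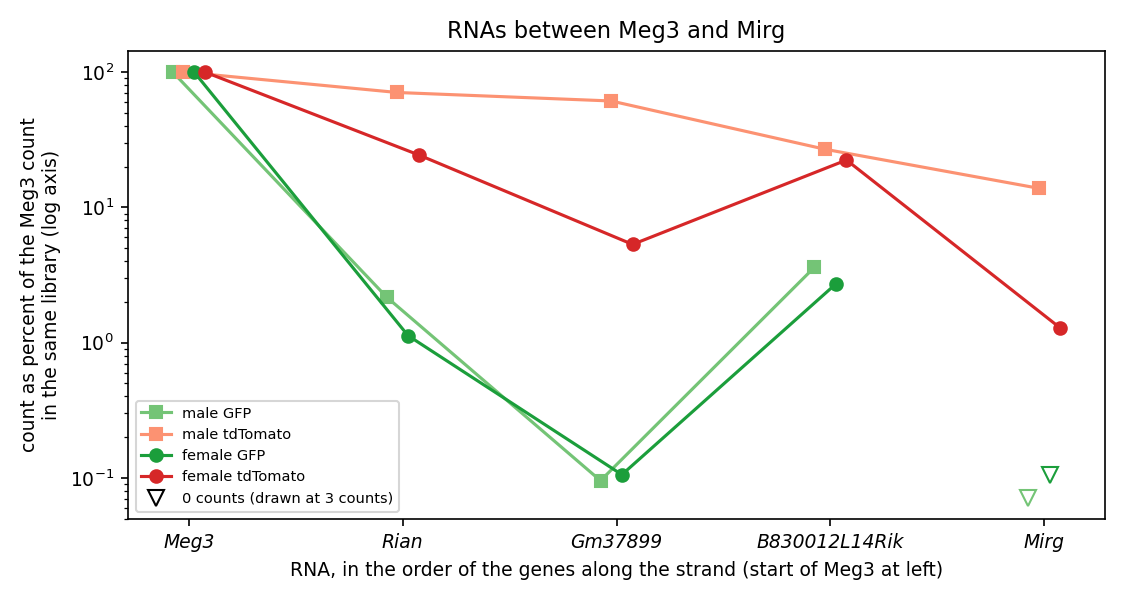
Count of each RNA from Meg3 to Mirg as a percentage of the Meg3 count in the same library (log axis), in gene order, 1 line per library; open triangles mark 0 counts, drawn at 3 counts. Both GFP lines drop to 0.0955% and 0.106% at Gm37899, while the tdTomato lines stay at 61.1% in male and 5.32% in female.

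Most endothelial and macrophage markers were, like Rian and Mirg, lower in GFP. Of 10 endothelial markers, 9 were 2-fold or more lower in GFP in each suspension, beside 22.9% of all genes. At 0 counts were 7 in male GFP and 2 in female GFP, Kdr and Egfl7 in both. Ptprb, Tek, Cdh5, Egfl7, Kdr, Emcn and Tie1 entered the test through their tdTomato counts alone, so they could only be lower in GFP. Flt1 was higher in GFP, at 45.6 CPM against 27.0 CPM in male and 48.3 CPM against 36.1 CPM in female. Of 7 macrophage markers, 5 were lower in this way, and Mrc1, Lyz2, C1qb and Cd68 were at 0 counts in both GFP libraries. All 5 entered the test through their tdTomato counts alone, so they too could only be lower in GFP. Cd14 and Csf1r were lower in male GFP but higher in female GFP, at 24.1 and 6.41 CPM against 8.16 and 4.75 CPM in female tdTomato. Fibroblast markers did so in part, with 2 of 9 lower in this way beside 22.9% of all genes and list medians of -3.87 in male and -0.05 in female. Pdgfra, a receptor of adventitial fibroblasts, had 0.426 CPM in male GFP against 61.9 CPM in male tdTomato. In the female suspension it had 0 CPM in GFP against 68.6 CPM in tdTomato. It entered the test through its tdTomato counts alone, so it could only be lower in GFP. Col1a1, a collagen chain, was the other lower one. Dcn, a proteoglycan, had 153 CPM in male GFP against 2236 CPM in male tdTomato, and 2134 CPM in female GFP against 1920.0 CPM in female tdTomato. Mfap5, a microfibril protein, was higher in both, at 955 CPM in male GFP against 378 CPM in male tdTomato and 377 CPM in female GFP against 298 CPM in female tdTomato. The part of these cells in the levels of Rian and Mirg was not tested. The genes whose centred log2 CPM profile lay closest to Rian, among 3412 genes of at least 50 CPM, were Col14a1, a fibril-associated collagen (18.8 CPM in male GFP against 128 CPM in male tdTomato, 7.998 CPM in female GFP against 98.8 CPM in female tdTomato), Tmem263 and Tnpo1, at distances of 1.10 to 1.26. Closest to Mirg among the same genes were Snhg14, Gnl3l and 1700020I14Rik, at 1.66 to 2.08. Mirg itself averaged 7.09 CPM, so genes near its own level were not part of this comparison.

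Malat1 was the most abundant gene of every library. It had 912835 counts (97176 CPM) in male GFP against 569114 counts (40939 CPM) in male tdTomato, and 567402 counts (44934 CPM) in female GFP against 663875 counts (44398 CPM) in female tdTomato. Its share of all counts was 9.04% in male GFP, 4.43% in male tdTomato, 4.15% in female GFP and 4.77% in female tdTomato. Male GFP stood apart and the other 3 lay close together. Malat1 was 2.37-fold higher in male GFP than in male tdTomato, and 1.01-fold higher in female GFP than in female tdTomato, where log2 turned to -0.20 by library totals. The contrast thus rested on the male suspension. Within the libraries Malat1 was 218, 220, 200 and 218 times the Meg3 count in male GFP, male tdTomato, female GFP and female tdTomato. Meg3 was among the 3 closest profiles to Malat1 (distance 0.111, after Acadm and Hsph1). Gm37376, a transcript model on the opposite strand of Malat1, had 0.241% to 0.313% of the Malat1 count in all 4 libraries, and the kit does not mark strand.

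Male GFP, the library with the highest Malat1 share, stood apart in other features too. The share of mitochondrial messenger RNAs was 0.809% in male GFP, against 1.72% to 1.97% in the other 3 libraries. That of mitochondrial ribosomal RNAs was 1.38% in male GFP, against 3.64% to 4.04% elsewhere, and that of 37 ribosomal protein genes 1.28%, against 2.39% to 2.92%. Of the genes that averaged at least 10 CPM, 23.8% had at most 3 counts in male GFP, against 2.79% in male tdTomato, 10.2% in female GFP and 2.28% in female tdTomato. Their part in the levels of Malat1, Meg3, Rian and Mirg was not tested. Rows annotated as long non-coding classes, 4556 in all, held 11.7% of the male GFP library, against 7.01% to 7.38% of the other 3. With Malat1 taken out of both these rows and the library total, they held 2.95% of male GFP, against 2.70% to 3.09% of the other 3.

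**Figure D3:**
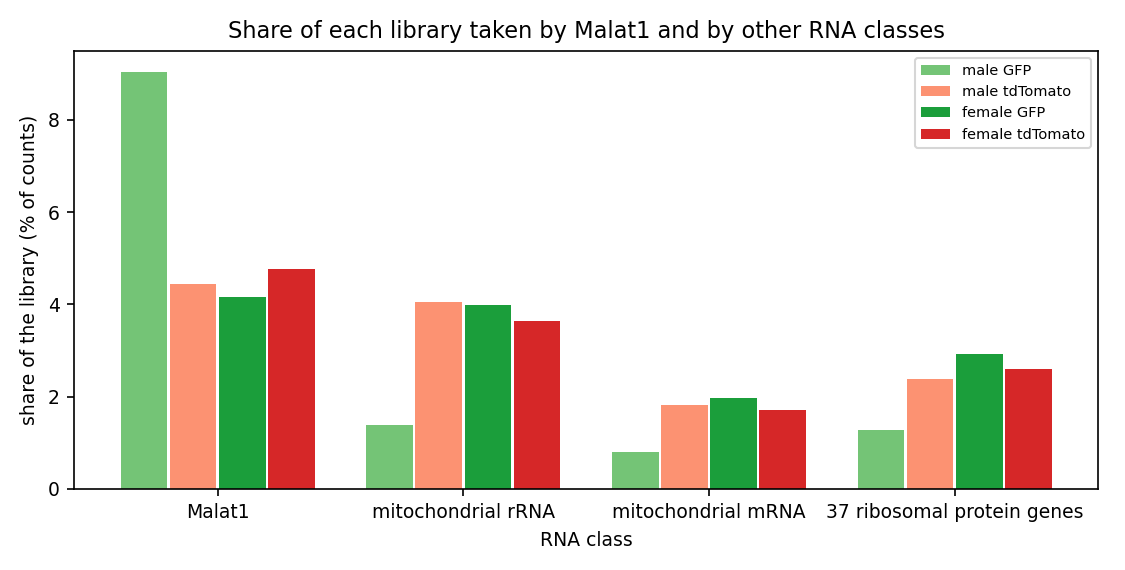
Share of all counts of each library (%) taken by Malat1, mitochondrial ribosomal RNA, mitochondrial messenger RNA and 37 ribosomal protein genes, 1 bar per library. In male GFP, Malat1 takes 9.04% while the other classes take 0.809% to 1.38%; the other 3 libraries resemble each other in all 4 classes.

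Neat1 had 6736 counts (717 CPM) in male GFP against 5302 counts (381 CPM) in male tdTomato, and 6984 counts (553 CPM) in female GFP against 5539 counts (370.4 CPM) in female tdTomato. Both GFP libraries lay above both tdTomato libraries. It was 1.88-fold higher in male GFP (1.81 to 1.95) and 1.49-fold higher in female GFP (1.44 to 1.55), a log2 ratio of 0.74 ± 0.24 (SD, n = 2). Neat1 and Malat1 genes are neighbours on chromosome 19, yet Malat1 was 136 times Neat1 in male GFP, 107 times in male tdTomato, 81.2 times in female GFP and 120 times in female tdTomato. Genes for the proteins of these nuclear bodies were read beside them. Of 26 paraspeckle protein genes, 2 were at least 2-fold lower in both suspensions (Rbmx and Nudt21, both RNA-binding), beside 22.9% of all genes. Only 1 was higher in this way (Zc3h6), beside 5.17%, and list medians were -1.45 in male and 0.51 in female. Of 25 speckle and splicing factor genes, 1 was lower (Srsf4) and 1 higher (Prpf6), beside the same shares of all genes. Their medians were 0.89 in male and 0.06 in female. Clk1, the kinase of splicing factors, had 1355 CPM in male GFP against 498 CPM in male tdTomato, and 647 CPM in female GFP against 447 CPM in female tdTomato. None of these genes passed edgeR's test.

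Gas5, whose snoRNAs guide methylation of ribosomal RNA, had 12339 counts (1314 CPM) in male GFP against 12585 counts (905 CPM) in male tdTomato, and 34811 counts (2757 CPM) in female GFP against 19577 counts (1309 CPM) in female tdTomato. Female GFP was the highest and male tdTomato the lowest, while male GFP and female tdTomato were nearly equal. Gas5 was 1.45-fold higher in male GFP (1.42 to 1.49) and 2.11-fold higher in female GFP (2.07 to 2.14). Snhg1 had 4787 counts (509.6 CPM) in male GFP against 2159 counts (155 CPM) in male tdTomato, and 2878 counts (228 CPM) in female GFP against 2075 counts (139 CPM) in female tdTomato. It was 3.28-fold higher in male GFP (3.12 to 3.45) and 1.64-fold higher in female GFP (1.55 to 1.74). The 2 hosts did not keep a fixed ratio, since Gas5 had 2.58 times the Snhg1 count in male GFP, 5.83 times in male tdTomato, 12.1 times in female GFP and 9.43 times in female tdTomato.

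Of 14 other snoRNA host genes tested, 1 was 2-fold or more lower in GFP in each suspension, beside 22.9% of all genes. By the same rule 2 were higher, beside 5.17%, and the medians were 0.11 in male and 0.31 in female. Snhg14, the imprinted host near Ube3a, was the lower one, with 13.1 CPM in male GFP against 180.1 CPM in male tdTomato, and 13.3 CPM in female GFP against 41.9 CPM in female tdTomato. Snhg9 and Snhg15 were the higher ones, Snhg9 at 19.2 CPM in male GFP against 6.69 CPM in male tdTomato and 32.6 CPM in female GFP against 14.3 CPM in female tdTomato. Snhg15 had 11 counts in male GFP against 4 in male tdTomato, and 1126 in female GFP against 29 in female tdTomato. Zfas1, an abundant host, had 239 CPM in male GFP against 137 CPM in male tdTomato, and 437 CPM in female GFP against 130.1 CPM in female tdTomato. The 37 ribosomal protein genes had medians of -0.68 in male and 0.47 in female. Among them 0 were at least 2-fold apart in one direction in both, beside 28.1% of all genes. Of 14 factors of nonsense-mediated decay, Magoh was lower in this way and Smg6 higher, beside 22.9% and 5.17% of all genes. Zbtb37, the gene beside Gas5, had 4 counts in each GFP library against 331 in male tdTomato and 519 in female tdTomato. Gas5 lay higher in GFP in both suspensions and Zbtb37 lower, but Zbtb37 entered the test through its tdTomato counts alone. Of 9 tested neighbours of Malat1, Neat1, Gas5 and Snhg1, 2 were 2-fold or more lower in each suspension (Zbtb37 and Frmd8), beside 22.9% of all genes. Stx5a was the 1 higher, beside 5.17%, at 112 CPM in male GFP against 49.3 CPM in male tdTomato. In female it had 122 CPM in GFP against 41.2 CPM in tdTomato. Frmd8, like Zbtb37, entered the test through its tdTomato counts alone, so it could only be lower in GFP.

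**Figure D4:**
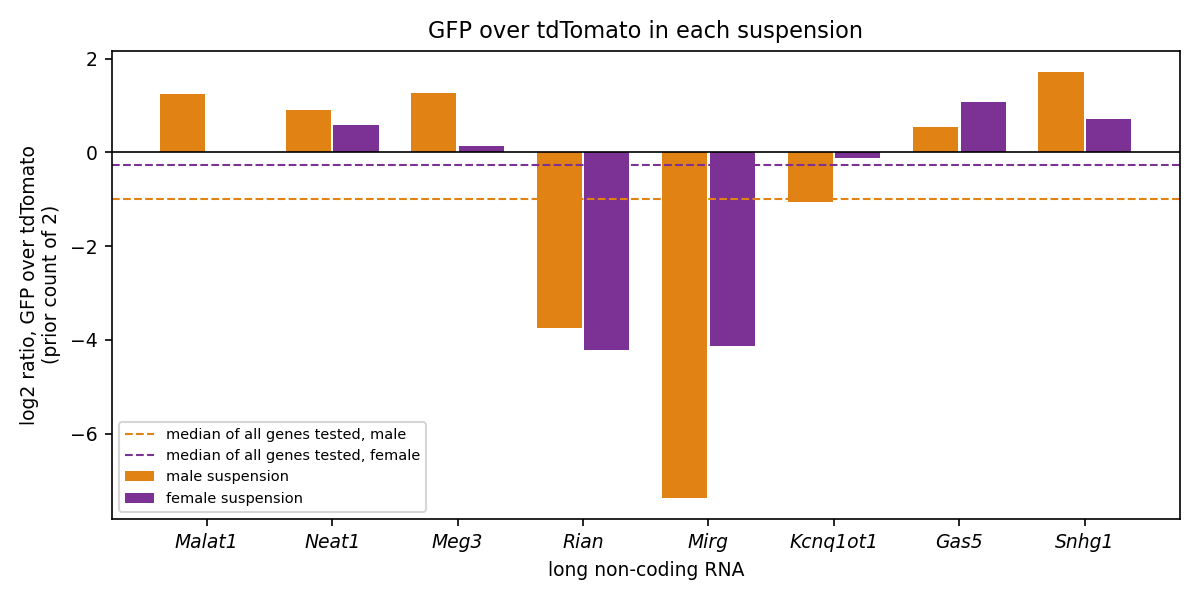
log2 ratio of GFP over tdTomato for the 8 tested RNAs (prior count of 2), 1 bar per suspension (orange male, purple female), with dashed lines at the medians of all genes tested, -0.998 in male and -0.27 in female. Rian and Mirg lie below -3 in both suspensions, and no other RNA reaches -2.

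Kcnq1ot1, an unspliced nuclear RNA that silences genes of its domain in cis, had 554 counts (59.0 CPM) in male GFP against 1710 counts (123 CPM) in male tdTomato, and 1634 counts (129 CPM) in female GFP against 2096 counts (140.2 CPM) in female tdTomato. Male GFP was the low library here. Kcnq1ot1 was 2.09-fold lower in male GFP (1.89 to 2.30) and 1.08-fold lower in female GFP (1.01 to 1.16), and the female log2 ratio of -0.12 became 0.01 with DESeq2's size factors. Its male ratio of -1.06 lay near the median of all genes. It lies within Kcnq1 on the other strand, and reads of the pair cannot be told apart. Its closest profiles were Rpl26, Selenok and Cbx1.

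H19, abundant in the mouse embryo and shut down in most tissues after birth, had 1 count in male GFP, 1 in male tdTomato and 0 in both female libraries, where 0 counts allow up to 0.238 CPM in GFP and 0.201 CPM in tdTomato. It was not detectable above that at this depth and no fold is given. Igf2, the growth factor gene beside it, had 0 counts in male GFP against 14 in male tdTomato, and 0 in female GFP against 341 in female tdTomato. Among 9 tested genes around H19 and Kcnq1ot1, Igf2 and Tnnt3 were 2-fold or more lower in GFP in each suspension, beside 22.9% of all genes. By the same rule 0 were higher, beside 5.17%. Both Igf2 and Tnnt3 entered the test through their tdTomato counts alone, so they could only be lower in GFP.

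Other imprinted genes were read beside these. Of 24 tested, 8 were 2-fold or more lower in GFP in each suspension (beside 22.9% of all genes) and 2 were higher (beside 5.17%). The medians were -0.74 in male and -1.91 in female. Ndn, a growth suppressor expressed from the paternal chromosome, had 0.213 CPM in male GFP against 35.7 CPM in male tdTomato, and 0.0792 CPM in female GFP against 26.6 CPM in female tdTomato. Sgce, a dystrophin-complex protein, had 0.213 CPM in male GFP against 37.5 CPM in male tdTomato, and 1.66 CPM in female GFP against 51.5 CPM in female tdTomato. Igf2r, the receptor that clears IGF2, had 15.5 CPM in male GFP against 45.5 CPM in male tdTomato, and 5.70 CPM in female GFP against 69.7 CPM in female tdTomato. Plagl1, a zinc finger regulator of imprinted genes, lay the other way at 315 CPM in male GFP against 13.2 CPM in male tdTomato, and 92.9 CPM in female GFP against 18.5 CPM in female tdTomato. Grb10, an adaptor that restrains growth signals, also lay higher, at 95.5 CPM in male GFP against 35.9 CPM in male tdTomato, and 182 CPM in female GFP against 47.1 CPM in female tdTomato. The other 5 lower ones were Impact, Pon3, Commd1, Asb4 and Cobl. Of the 8, Ndn, Asb4 and Cobl entered the test through their tdTomato counts alone, so they could only be lower in GFP. None passed edgeR's test.

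**Figure D5:**
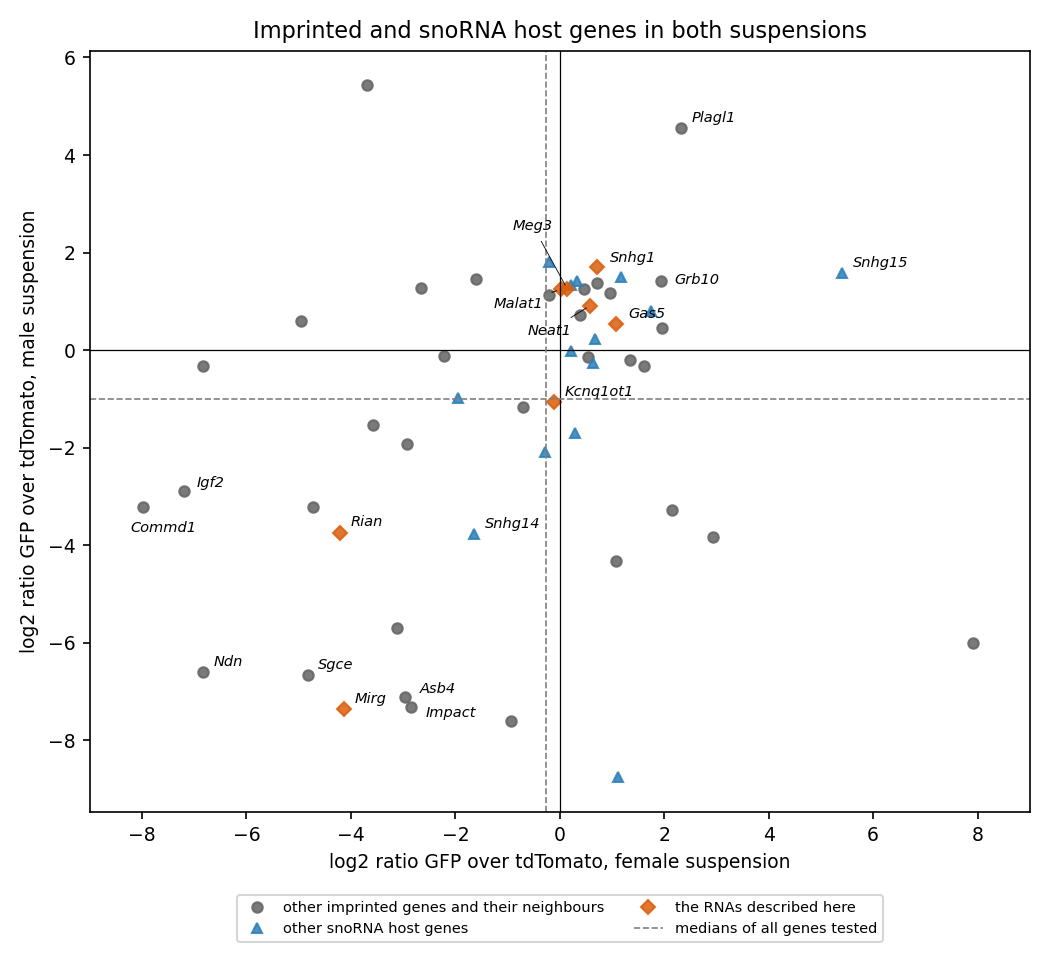
log2 ratio of GFP over tdTomato in the female suspension (horizontal) and the male suspension (vertical) for tested imprinted genes and neighbours (grey circles), other snoRNA hosts (blue triangles) and the RNAs described here (orange diamonds); dashed lines are the medians of all genes. Rian and Mirg lie in the lower left with Ndn, Sgce and Igf2, and Plagl1 and Grb10 in the upper right.

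Male and female libraries were compared within each colour. None of the 8 tested RNAs passed edgeR's test with colour as block (adjusted p of 1 for each), and of all genes 0% passed, with 262 (1.74%) at an unadjusted p under 0.05. Rian was at least 2-fold higher in male in both colours, 1 of 8 beside 6.28% of all genes, and 0 of 8 were 2-fold or more lower in both, beside 10.3% (16.6% of all genes in one direction or the other). It was 3.82-fold higher in male GFP than in female GFP (2.53 to 5.91) and 2.65-fold higher in male tdTomato than in female tdTomato (2.43 to 2.89). Mirg was 9.87-fold higher in male tdTomato than in female tdTomato (7.08 to 14.1) and had 0 counts in both GFP libraries. The macrophage markers summed to 86.3 CPM in male tdTomato against 28.3 CPM in female tdTomato. Mrc1, a mannose receptor, had 27.9 CPM in male tdTomato against 1.81 CPM in female tdTomato, whereas Cd68 had 1.44 CPM in male tdTomato against 7.02 CPM in female tdTomato, and Cd14 2.23 CPM in male tdTomato against 8.16 CPM in female tdTomato. Their part was not tested.

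In GFP, Malat1 was 2.16-fold, Meg3 1.98-fold, Snhg1 2.24-fold and Neat1 1.30-fold higher in male than in female, whereas Gas5 was 2.10-fold and Kcnq1ot1 2.19-fold lower. In tdTomato these 6 lay closer together. Gas5 was 1.45-fold lower in male, and the others differed by 1.03-fold to 1.14-fold. For Neat1 the counting interval of that difference, 0.991 to 1.07, included no difference. With 1 library for each sex and colour, whether the colours differ more in one suspension than in the other cannot be tested.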

How the data were processed

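Polyadenylated RNA of 4 sorted aortic cell libraries was profiled with SMART-Seq v4, which uses oligo(dT) priming, template switching, PCR and transposase fragmentation and does not mark strand, per the labels' protocols. Build GRCm39 and the tools HISAT2, StringTie and fastp are named, without versions, per the submitters' processing notes. Which program counted reads, and with which annotation, is not given in the sources used here. Expected counts (estimated counts per gene, unscaled) were deposited by the authors and rounded here to whole numbers. Symbols were matched by Ensembl identifier for 25182 of 32948 genes, which held 92.7% to 94.9% of the counts. Of 294 symbols in the gene lists, 27 had no match and were not analysed here. Exon lengths and gene order came from an annotation of an earlier mouse build (GRCm38) and were used for no coordinate of the deposited table.

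CPM used totals scaled by TMM (factors 0.923 to 1.08). The filter was edgeR's filterByExpr with min.count of 10, passed by 15055 genes. Genes were tested by quasi-likelihood in edgeR (version 4.0.16 under R 4.3.3), Benjamini-Hochberg adjusted at 0.05, checked on simulated data, with DESeq2 1.42.0 and limma-voom (limma 3.58.1) as alternatives. The common dispersion was 1.47 with 1 residual degree of freedom. Both colours of a sex came from 1 suspension, so suspension was a block for colour, and colour for sex. The labels carry no replicate numbers, and the pairing comes from the shared suspension. The p-values measure only the spread between these libraries. log2 ratios used a prior count of 2, and folds of single genes none, with exact 95% binomial intervals. Against 0 counts a fold was bounded at 3 counts in that library.

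The 9 RNAs and 17 other lists were chosen with earlier results of these data known. From each list the 3 most abundant genes and those at least 2-fold apart in one direction in both suspensions could be named. Likeness was the Euclidean distance between log2(CPM + 0.5) profiles centred over the 4 libraries, among genes averaging at least 50 CPM. Motifs, the CArG box among them, were searched by their letters on both strands of RefSeq windows, and overlapping matches were counted.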

Additional observations from a re-analysis of the deposited data

How the results depend on the processing

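Without a block for the suspension, edgeR called 0 genes for colour, as with the pairing, and 1982 in place of 1298 at an unadjusted p under 0.05. DESeq2 called 1157 genes for colour (49 higher and 1108 lower in GFP) and 140 for sex, and edgeR without a filter on low counts called 2 for sex, where the main analysis called 0; the cause was not tested. The other scalings, filters, limma-voom and leaving out 1 library at a time called 0 in both contrasts; in the fits without a library the lone library of a group is assumed to vary like the others. The number of the 9 RNAs at least 2-fold apart in one direction in both suspensions was 2, beside 28.1% of all genes tested. It was 3 to 6 when 1 suspension was read alone: 6 in male and 3 in female. For male over female it was 1, beside 16.6% of all genes tested. The number was 2 in tdTomato alone, 5 in GFP alone, and 2 with a prior count of 0.5, which adds H19 at 1 count. These single-pair counts were added after seeing the data, and the matching shares of all genes were not computed. They are therefore not read as a result about these RNAs. In the male suspension the median log2 ratio of all genes tested was itself -0.998, near 2-fold lower in GFP. Under the other scalings and the other prior count, 36 of 36 mean log2 ratios of the 9 RNAs for colour and 35 of 36 for sex lay within 1 SD of the pairs; the exception was H19. Leaving out a library leaves 1 pair, and male over female then ran from -0.12 to 1.11 for Malat1 and from -0.13 to 0.99 for Meg3, a change of sign. Scaling moved the median of all genes for GFP over tdTomato to -1.20 in male and -0.48 in female by library totals, and to -0.78 and -0.15 with DESeq2's size factors. For Mirg and H19, 3 counts in GFP are 0.319 CPM in male and 0.238 CPM in female, a bound that covers counting error only.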

Other observations

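Among 21 other long non-coding RNAs tested, 3 were 2-fold or more lower in GFP in each suspension and 2 were higher, with medians of -0.37 in male and -0.46 in female. Mir99ahg, a microRNA host, had 37.2 CPM in male GFP against 118 CPM in male tdTomato, and 14.7 CPM in female GFP against 54.4 CPM in female tdTomato. Dleu2, the host of the miR-15a cluster, had 15.97 CPM in male GFP against 82.0 CPM in male tdTomato, and 20.99 CPM in female GFP against 56.6 CPM in female tdTomato. Hotairm1, an RNA of the HoxA cluster, had 1.38 CPM in male GFP against 21.2 CPM in male tdTomato, and 9.34 CPM in female GFP against 26.8 CPM in female tdTomato. Ftx and Jpx, RNAs of the X-inactivation centre, were the higher ones. Ftx had 351 CPM in male GFP against 73.9 CPM in male tdTomato, and 431 CPM in female GFP against 188 CPM in female tdTomato. Jpx had 78.7 CPM in male GFP against 4.03 CPM in male tdTomato, and 18.8 CPM in female GFP against 6.22 CPM in female tdTomato. Mir22hg, a microRNA host, lay between 275 CPM in female tdTomato and 367 CPM in male GFP. Over all 1358 tested rows of long non-coding classes, 18.0% were 2-fold or more lower in GFP in each suspension and 5.30% higher, beside 22.9% and 5.17% of all genes tested. None passed edgeR's test at an adjusted p of 0.05.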
